A study of Mus musculus with 18 samples.

Results

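The genes described here are 9 mouse genes of iron storage, iron transport and heme breakdown: Fth1, Ftl1, Slc40a1, Slc11a1, Slc11a2, Tfrc, Hmox1, Cp and Steap3. They were taken by symbol from a table of raw read counts with 30530 gene rows, in which each symbol had a single row. All 9 members passed the filter on low counts, which left 12741 genes for testing.

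Macrophages take up iron as transferrin through the transferrin receptor (Tfrc), reduce it with the metalloreductase Steap3 and move it out of the endosome through the divalent metal transporter DMT1 (Slc11a2). Iron and other divalent metals leave the phagosome through Nramp1 (Slc11a1), and heme from engulfed red cells is opened by heme oxygenase 1 (Hmox1), which frees its iron. Iron that is not used is held in ferritin, a shell of heavy (Fth1) and light (Ftl1) chains, or leaves the cell through ferroportin (Slc40a1), aided by the ferroxidase ceruloplasmin (Cp). Iron regulatory proteins set much of this after transcription: when iron is scarce they bind a hairpin, the iron-responsive element, and block translation when it lies in the 5′ UTR or protect the mRNA when it lies in the 3′ UTR. In inflammation, macrophages are known for holding iron back, with more ferritin and less ferroportin.

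The libraries were made from poly(A) RNA of bone marrow-derived macrophages (BMDM), macrophages grown in culture from marrow cells, of C57BL/6 (B6) mice and of Ch25h-/- mice. Ch25h encodes cholesterol 25-hydroxylase, the enzyme that makes the oxysterol 25-hydroxycholesterol (25HC). B6 cells were untreated or treated with 5 µM 25HC for 18 h, Ch25h-/- cells received no 25HC, and each of these 3 arms was left at rest or stimulated with 300 ng/mL PAM3 (Pam3CSK4, a synthetic lipopeptide that activates TLR2 with TLR1). This gave 6 groups of 3 libraries. A time of stimulation is labelled as 18 with PAM3 and as 0 at rest, without a unit, so PAM3 and any difference in time cannot be told apart. The labels number the mice 1 to 3 within a genotype. The labels do not state age, sex or how the knockout was made. The labels do not say whether a number shared by B6 and Ch25h-/- mice marks a common day or batch.

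Total counts ran from 14.04 M to 150.4 M per library, a 10.7-fold range. Ch25h was at 3.16 to 20.4 CPM (the usual depth-normalized count unit, here with library sizes scaled by TMM factors) in the resting B6 libraries and at 0 to 0.119 CPM in the resting Ch25h-/- libraries. With PAM3 it was at 1.66 to 3.55 CPM in B6 and at 0 to 0.0871 CPM in Ch25h-/-. Of 8 macrophage marker symbols, 7 were in the table and had counts in every group, with a summed level of 18387 CPM or more in every library. Of 11 erythroid symbols 5 were in the table, their summed level was at most 3.57 CPM in any library, and Alas2 was at 0 in all groups. The library numbered 2 had the highest score of its group on the third principal component in all 3 resting groups. This component held 7.93% of the variance. For resting Ch25h-/- the score was 75.6, beside -2.10 and 9.97 for replicates 1 and 3. For resting untreated B6 it was 31.3, beside -18.9 and -1.31. At rest with 25HC it was -17.3, beside -45.8 and -45.1. The resting Ch25h-/- libraries were the shallowest, at 14.04 M to 19.19 M counts. Neutrophil markers summed to 13.2 to 69.8 CPM in resting Ch25h-/- cells and to 4.30 to 6.61 CPM in resting B6 cells. In such bulk samples, fewer cells of a type and less RNA per cell cannot be told apart.

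Because iron regulatory proteins act through a hairpin, the member transcripts were searched for it, and the sites are shown because they divide the members into those with and without this element. The search asked for a C, 5 bases, the loop CAGTGN and 5 bases that pair with the first 5 (A-T, G-C or G-T), in the UTRs of GENCODE M21 coding transcripts on the sense strand. It found 8 sites in 5 of the 9 members; the loop is in capitals and each sequence has 30 bases, 5′ to 3′ on the transcript.
Fth1, 5′ UTR: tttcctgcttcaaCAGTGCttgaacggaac
Ftl1, 5′ UTR: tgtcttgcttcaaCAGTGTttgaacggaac
Slc40a1, 5′ UTR: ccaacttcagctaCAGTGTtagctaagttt
Slc11a2, 3′ UTR, with 1 extra base in the second arm: gagccatcagagcCAGTGTgtttctatggt
Tfrc, 3′ UTR, site 1: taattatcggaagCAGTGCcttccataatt
Tfrc, 3′ UTR, site 2: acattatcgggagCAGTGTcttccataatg
Tfrc, 3′ UTR, site 3: tctatatcggagaCAGTGAtctccatatgt
Tfrc, 3′ UTR, site 4: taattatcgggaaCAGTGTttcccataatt

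These sites lie, in GRCm38, at chr19:9982731-9982760 (plus strand) for Fth1, chr7:45459779-45459808 (minus) for Ftl1, chr1:45925465-45925494 (minus) for Slc40a1 and chr15:100395153-100395182 (minus) for Slc11a2. The Tfrc sites are at chr16:32631218-32631247, chr16:32631597-32631626, chr16:32631662-32631691 and chr16:32631709-32631738 (plus). A strict match was rare: 28 of 21767 coding genes (0.129%) had one in a 5′ UTR and 126 (0.579%) in a 3′ UTR, and with 1 extra base allowed the shares were 0.326% and 1.62%. The ferritin chains and the exporter had the match at the 5′ end. The receptor and the endosomal transporter had it at the 3′ end. This held for 3 of the 3 transcripts scanned of Fth1 and for the 1 of Slc40a1. For Ftl1, Slc11a2 and Tfrc it held for 1 of 2, and counts per gene do not separate transcripts. No match was found in the UTRs of Slc11a1, Hmox1, Cp or Steap3, which says only that these letters are not there. A match is a description of sequence, and protein binding was not measured.

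PAM3 moved all 9 members in each of the 3 arms, but not every call held under other settings. The call of Ftl1 in untreated B6 was lost in 7 of 15 settings, including the mouse number as a block (edgeR adjusted p = 0.0538). The call of Steap3 in Ch25h-/- was lost in 2 of 14 settings. 25HC moved 2 at rest and 5 with PAM3, and no member passed the test between genotypes. A gene was called at an adjusted p below 0.05 in edgeR's quasi-likelihood test, with Benjamini-Hochberg adjustment over all 12741 genes. With PAM3 in untreated B6, 6 members rose and 3 fell, against 62.1% of all genes called (31.3% higher and 30.8% lower). The same counts of 6 and 3 were found in 25HC-treated B6 (58.9% of all genes called, 28.5% higher and 30.4% lower) and in Ch25h-/- (62.0%, 29.9% higher and 32.1% lower). The median absolute log2 fold change of the members with PAM3 in untreated B6 was 1.99, beside 0.59 over all genes tested. With 25HC at rest, 2 members fell and 0 rose (26.2% of all genes called, 14.8% higher and 11.4% lower); at an unadjusted p below 0.05, 3 fell and 3 rose (39.1% of all genes passed), and DESeq2 called 3 lower and 0 higher (30.2% of all genes called). With 25HC and PAM3 together against PAM3 alone, 1 member rose and 4 fell (45.1%, 21.5% higher and 23.6% lower). The share of members called with 25HC was thus close to that of all genes. The 3 libraries of one group lay entirely above or below those of the other for 8 members with PAM3 in untreated B6 (63.0% of all genes), 9 in 25HC-treated B6 (72.6%) and 8 in Ch25h-/- (67.0%). The same held for 3 members with 25HC at rest (42.4% of all genes) and 5 with 25HC and PAM3 (58.4%). Between genotypes it held for 1 member at rest (10.2%) and 5 with PAM3 (20.4%). Several of these comparisons share a group of libraries and are not independent of each other.

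**Figure D1:**
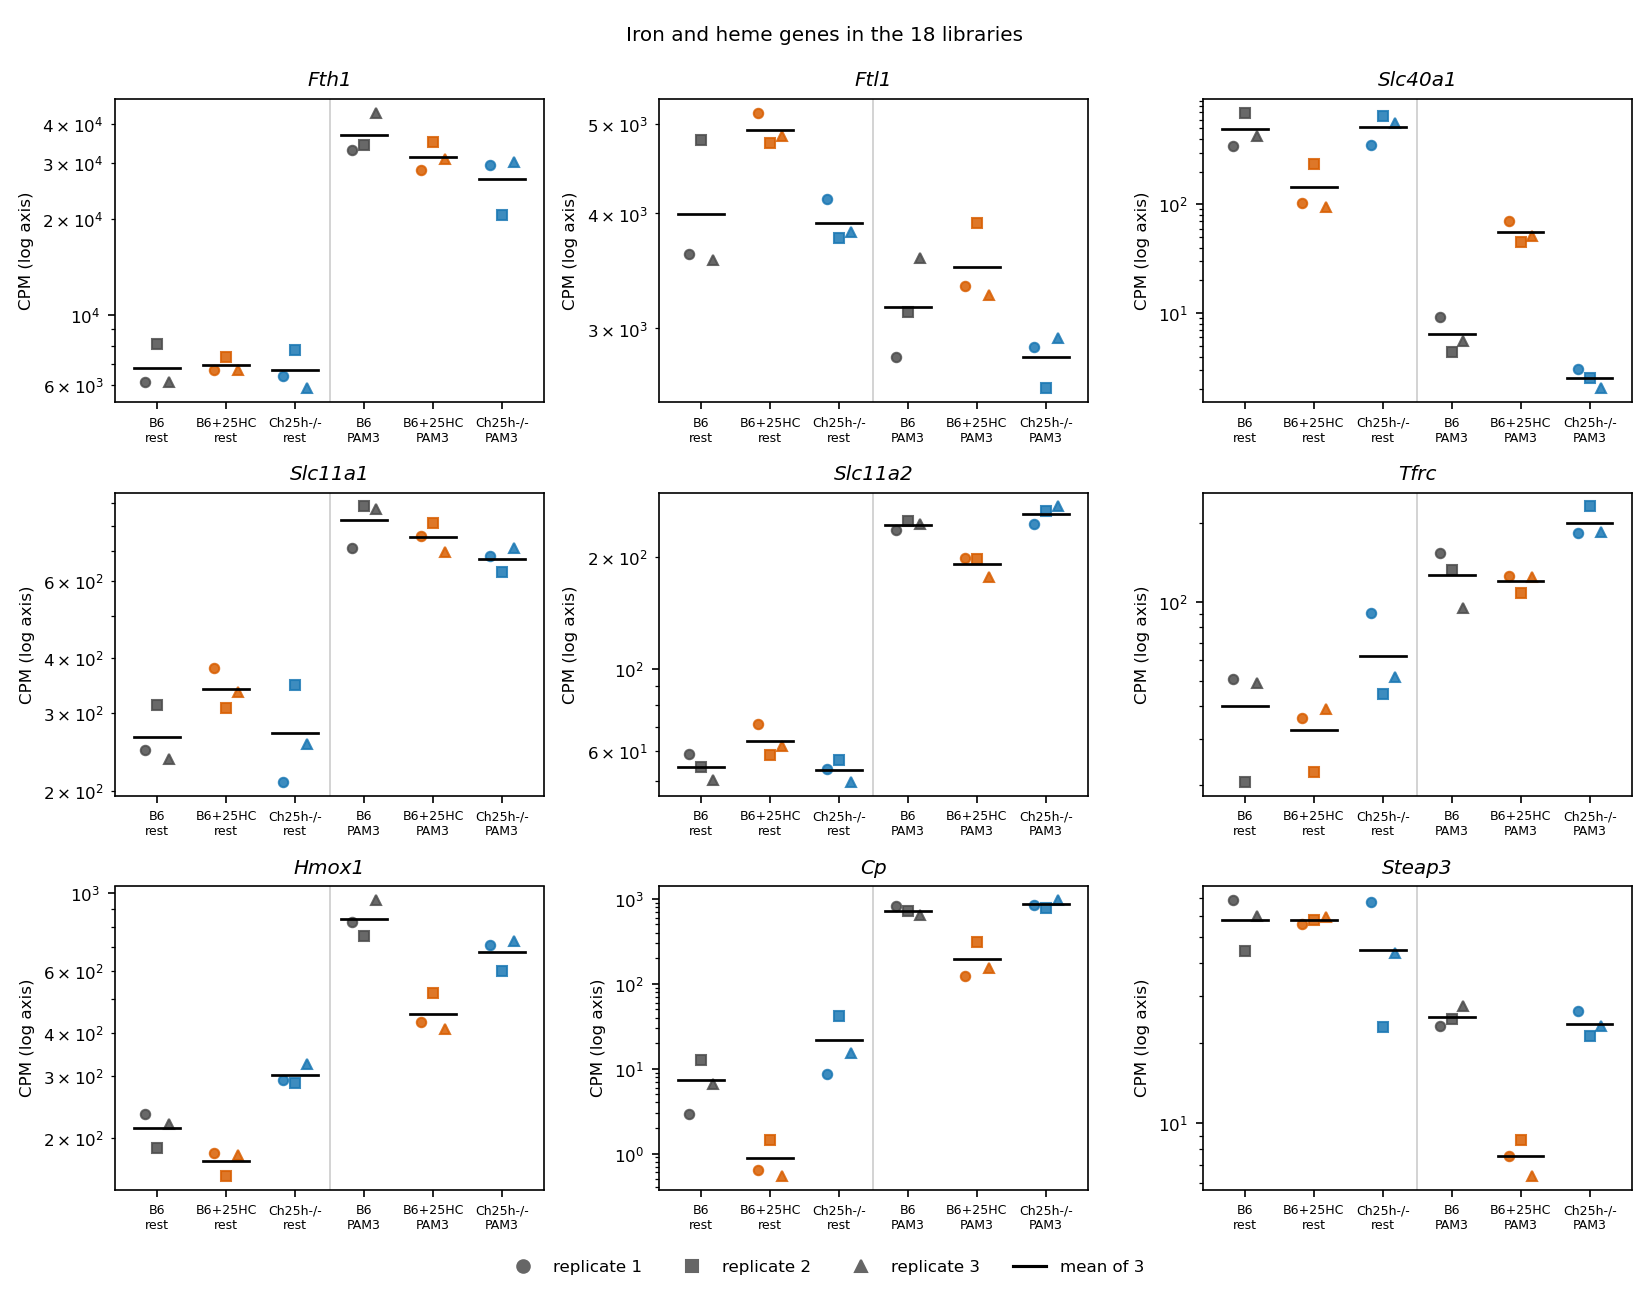
Expression of the 9 members in every library, in TMM-scaled CPM on log axes, with the 3 resting groups left and the 3 PAM3 groups right of the grey line; symbols mark the replicate number and black lines the mean of 3. Slc40a1 drops from 345 to 697 CPM in resting B6 to 4.41 to 9.27 CPM with PAM3, while the 25HC-treated PAM3 libraries stay at 45.1 to 70.1 CPM.

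**Figure D2:**
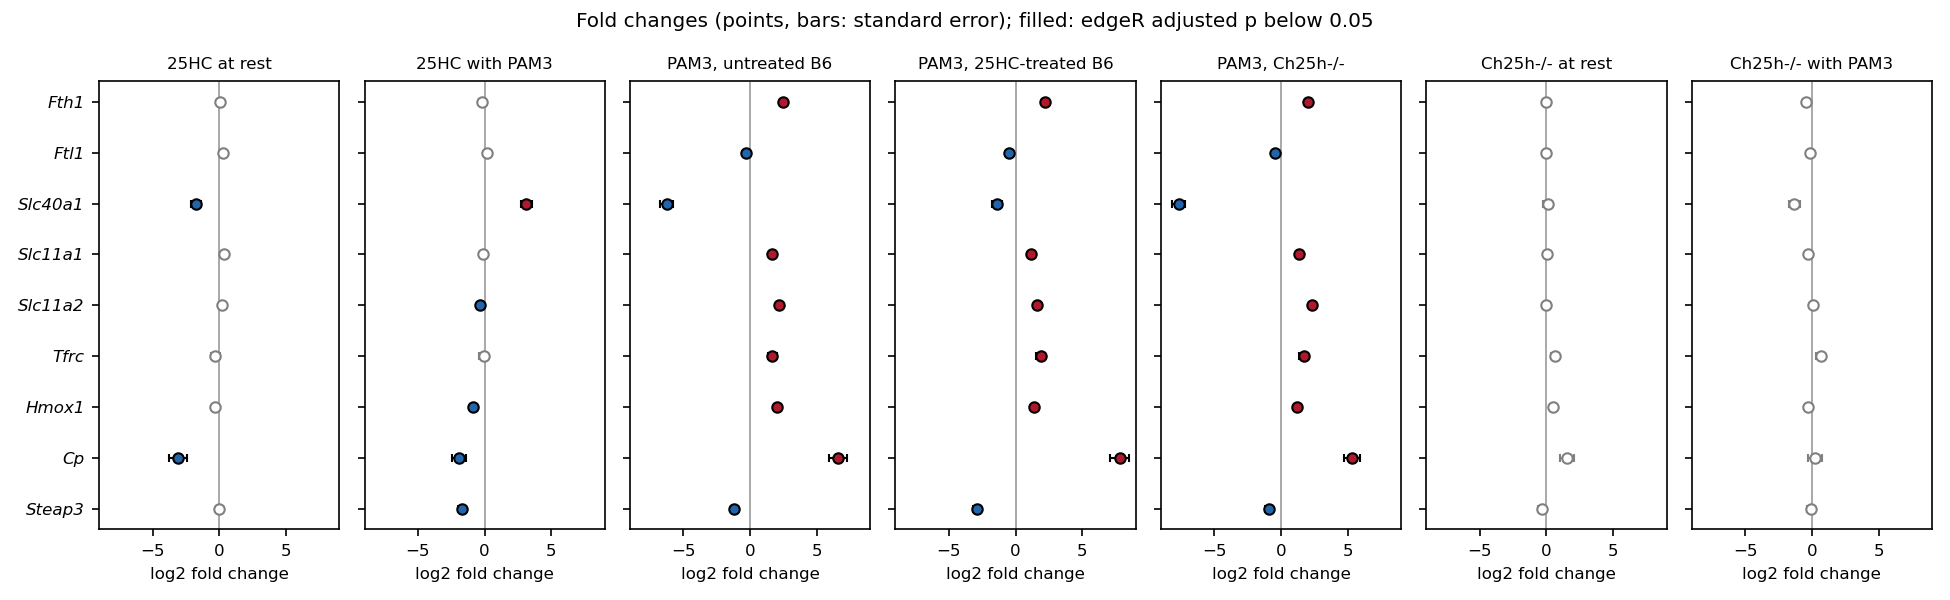
Log2 fold changes of the 9 members in the 7 pairwise comparisons, with standard errors as bars; filled points passed an edgeR adjusted p below 0.05, red for higher and blue for lower. The 3 PAM3 panels hold 9 filled points each and the 2 genotype panels none.

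Ferritin heavy chain mRNA rose with PAM3 and the light chain mRNA fell slightly. Fth1 (chr19:9980598-9985098, plus strand) was at 6170, 8076 and 6146 CPM in resting B6 cells and at 32946, 34188 and 43318 CPM with PAM3. All 3 stimulated libraries were far above the 3 at rest, a log2 fold change of 2.44 ± 0.19 (SE, edgeR adjusted p = 8.18e-08), or 5.42-fold. By CPM it was the fifth most abundant gene in these cells at rest and the most abundant with PAM3. In 25HC-treated cells it went from 6717, 7367 and 6718 CPM to 28662, 35015 and 30875 CPM, and in Ch25h-/- cells from 6425, 7773 and 5877 CPM to 29692, 20590 and 30188 CPM. The 3 resting groups overlapped in Fth1. With PAM3 the 25HC-treated libraries overlapped the untreated ones, and all 3 Ch25h-/- libraries lay below all 3 of B6, a difference of -0.46 ± 0.18 that was not called (adjusted p = 0.262). The 25HC difference in Fth1 was 0.03 on the log2 scale at rest (95% interval -0.36 to 0.41) and -0.22 with PAM3 (-0.61 to 0.16), neither of them called.

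Ftl1 (chr7:45457944-45459884, minus strand) was at 3612, 4806 and 3564 CPM in resting B6 and at 2790, 3124 and 3576 CPM with PAM3. The groups overlapped, since the third PAM3 library was level with the lowest at rest. The fall of 0.34 ± 0.14 (log2, edgeR adjusted p = 0.0462) lay near the threshold and was lost with the mouse number as a block (adjusted p = 0.0538), with no filter on low counts, with only the groups compared, and without resting replicate 2 (a fall of 0.18), PAM3 replicate 1, PAM3 replicate 2 or replicate 2 of every group (a fall of 0.17). In the other arms the groups did not overlap: Ftl1 fell by 0.49 ± 0.14 in 25HC-treated cells (adjusted p = 0.00681), from 5147, 4775 and 4856 CPM to 3334, 3906 and 3266 CPM. In Ch25h-/- cells it fell by 0.48 ± 0.14 (adjusted p = 0.00703), from 4147, 3761 and 3818 CPM to 2867, 2583 and 2932 CPM. A near-identical copy, Ftl1-ps1 (listed as Gm10116), held 1235 ± 231 CPM at rest and 961 ± 128 CPM with PAM3 in B6 (SD, n = 3), so Ftl1 reads may be split between them. With both rows summed, the fall in untreated B6 was 0.34 ± 0.14 (adjusted p = 0.0467).

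The balance of the chains shifted. Per kilobase of the longest coding transcript (1494 bases for Fth1 and 968 for Ftl1), the ratio of Fth1 to Ftl1 was 1.10 ± 0.01 at rest and 7.53 ± 0.39 with PAM3 in untreated B6 (SD, n = 3). It was 0.914 ± 0.078 and 5.84 ± 0.28 in 25HC-treated cells, and 1.11 ± 0.20 and 6.18 ± 0.88 in Ch25h-/- cells. The ratios at rest and with PAM3 did not overlap in any arm, and each exact two-sided permutation test gave p = 0.1, the smallest that 3 libraries against 3 can give. The test shuffles libraries freely and ignores that same-numbered ones came from the same mouse, so its p only restates the lack of overlap. 25HC-treated libraries were below the untreated ones both at rest and with PAM3, again with no overlap and with exact permutation p = 0.1. With a shorter Fth1 transcript (929 bases) the ratio in untreated B6 was 1.78 at rest and 12.1 with PAM3, so its absolute size depends on the transcript assumed. Both chains together took 1.14% of all counts in resting B6 libraries and 3.66% with PAM3.

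**Figure D3:**
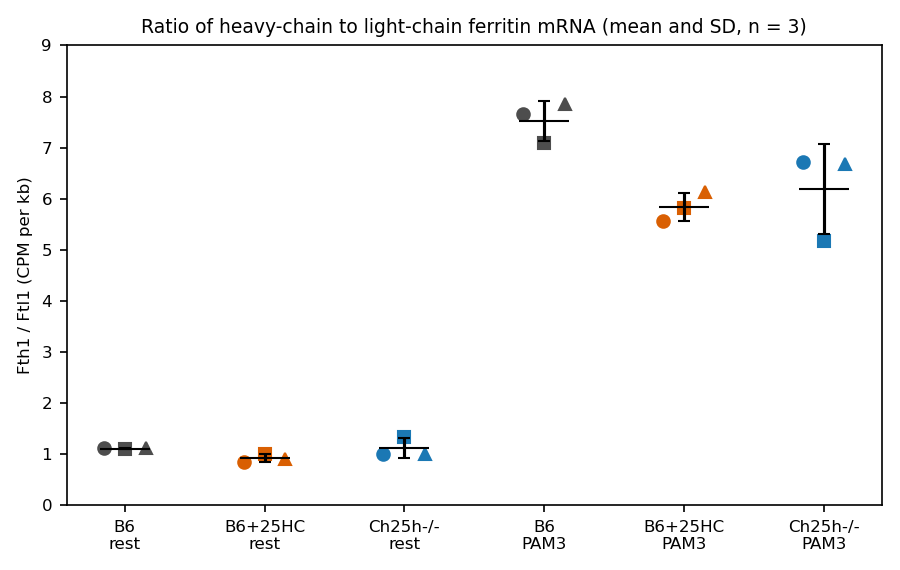
Ratio of Fth1 to Ftl1 mRNA (CPM per kilobase of the longest coding transcript) in each library, with the mean and SD of 3 as black marks; grey is untreated B6, orange 25HC-treated B6 and blue Ch25h-/-. The resting groups have means of 0.914 to 1.11 and the PAM3 groups of 5.84 to 7.53.

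The exporter ferroportin showed the widest spread over the groups after ceruloplasmin, and 25HC moved it in opposite directions at rest and with PAM3. Slc40a1 (chr1:45908068-45926523, minus strand) was at 345, 697 and 427 CPM in resting B6, and at 104, 237 and 95.7 CPM in resting 25HC-treated cells. Every treated library was below every untreated one, a fall of 1.75 ± 0.38 (log2, edgeR adjusted p = 0.00405), or 3.37-fold. Replicate 2 was the highest in each of the 3 resting groups. With PAM3 the untreated libraries were at 9.27, 4.41 and 5.60 CPM, a fall of 6.27 ± 0.46 from rest (adjusted p = 5.15e-08), or 76.9-fold. The 25HC-treated libraries with PAM3 were at 70.1, 45.1 and 50.9 CPM. All 3 were above all 3 untreated PAM3 libraries, by 3.12 ± 0.40 (adjusted p = 2.53e-05), or 8.69-fold, and below all 3 resting 25HC-treated libraries, by 2.63-fold (log2 -1.40 ± 0.37, adjusted p = 0.00476). That last value was -0.86 without replicate 2 of the resting 25HC-treated group and -0.72 without replicate 2 of every group, and it was called each time.

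Ch25h-/- cells had 350, 647 and 563 CPM of Slc40a1 at rest and 3.06, 2.53 and 2.04 CPM with PAM3, a fall of 7.68 ± 0.51 (log2, edgeR adjusted p = 1.74e-08). At rest they overlapped B6. With PAM3 all 3 were below the B6 libraries, by 1.32 ± 0.43, and the edgeR test did not call this (adjusted p = 0.163), although DESeq2 did (adjusted p = 0.0348). From high to low, the group means were ordered as resting Ch25h-/- and resting B6, which overlapped, then resting 25HC-treated, 25HC-treated with PAM3, B6 with PAM3 and Ch25h-/- with PAM3, with no overlap between neighbours from resting B6 downwards.

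Ceruloplasmin, the ferroxidase that works with ferroportin, rose with PAM3 and was lower with 25HC. Cp (chr3:19957054-20009145, plus strand) was at 2.91, 12.7 and 6.52 CPM in resting B6 and at 821, 721 and 636 CPM with PAM3, a rise of 6.60 ± 0.66 (log2, edgeR adjusted p = 8.37e-07), or 97.1-fold. In 25HC-treated cells it was at 0.633, 1.46 and 0.547 CPM at rest and at 124, 309 and 152 CPM with PAM3. Both sets were below the untreated libraries with no overlap: by 3.09 ± 0.66 at rest (adjusted p = 0.0040) and by 1.90 ± 0.53 with PAM3 (adjusted p = 0.00845). The PAM3 response with 25HC was 7.80 ± 0.73 and did not differ detectably from that without it (difference 1.20, 95% interval -0.59 to 2.98, adjusted p = 0.295). Ch25h-/- cells had 8.71, 41.4 and 15.4 CPM at rest and 856, 779 and 961 CPM with PAM3. Replicate 2 was the highest in Cp in every resting group. In Ch25h-/- it is in the group where the neutrophil markers reached 69.8 CPM. These markers summed to at most 6.61 CPM in resting B6 and 3.28 CPM in resting 25HC-treated cells. The part of neutrophils in the Cp level was not tested. Exons of Cp overlap those of Hps3 on the other strand. Hps3 had a mean of 74.6 CPM at rest and 67.7 CPM with PAM3 in untreated B6.

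**Figure D4:**
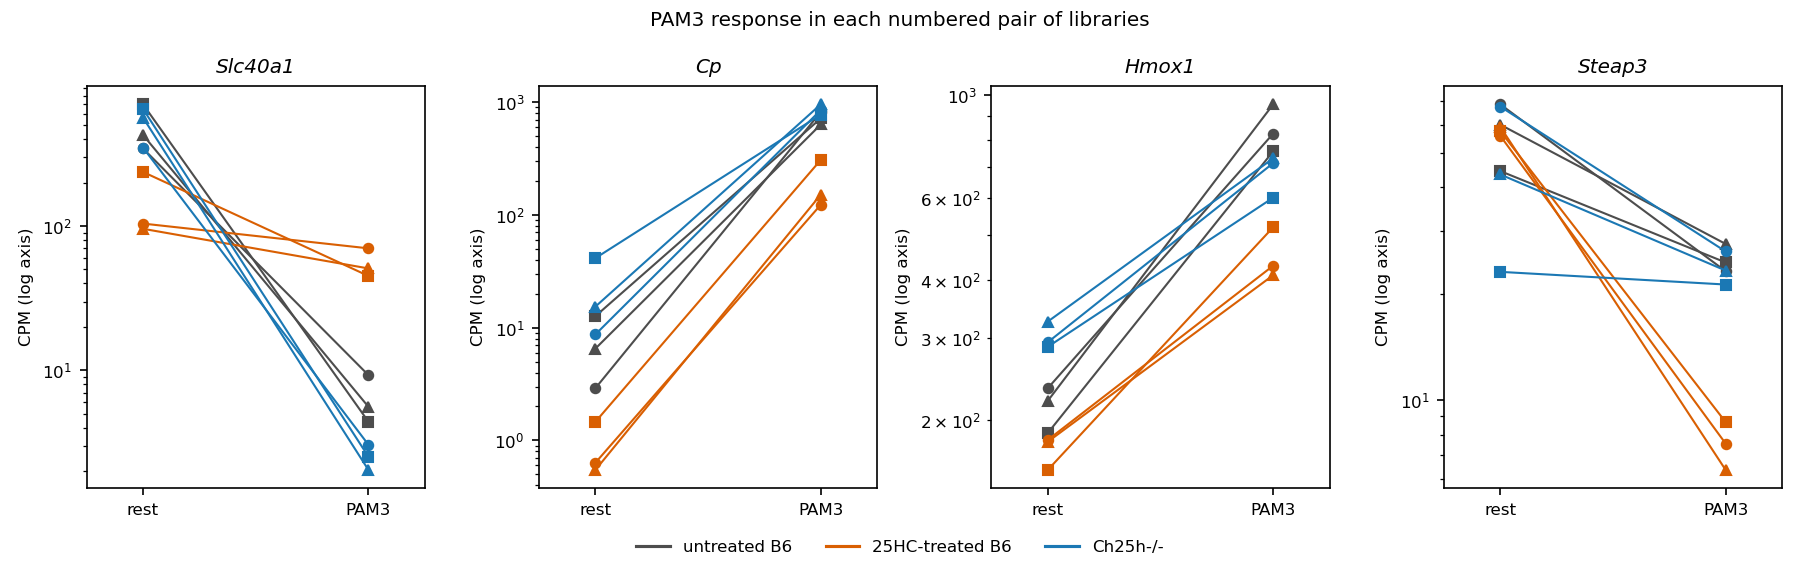
Levels of Slc40a1, Cp, Hmox1 and Steap3 (CPM, log axes) at rest and with PAM3, with lines joining libraries that share an arm and replicate number; grey is untreated B6, orange 25HC-treated B6 and blue Ch25h-/-. The orange lines for Slc40a1 start below the others and end above them, at 45.1 to 70.1 CPM.

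Among the genes of uptake, the receptor and both transporters rose with PAM3 and the reductase fell. Tfrc (chr16:32608920-32632794, plus strand) was at 50.7, 20.5 and 49.1 CPM in resting B6 and at 154, 133 and 94.6 CPM with PAM3, without overlap, a rise of 1.67 ± 0.33 (log2, edgeR adjusted p = 0.000424). It rose by 1.89 ± 0.33 in 25HC-treated cells and by 1.69 ± 0.33 in Ch25h-/- cells. The 25HC difference was not called at rest (-0.30, 95% interval -0.99 to 0.39) or with PAM3 (-0.08, -0.76 to 0.59). Ch25h-/- cells with PAM3 had 183, 232 and 185 CPM, all above B6, and the difference of 0.66 ± 0.32 was not called (adjusted p = 0.37).

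Slc11a2 (chr15:100387898-100425072, minus strand), the endosomal iron transporter, had the smallest standard errors of the 9. It was at 58.9, 54.4 and 50.4 CPM in resting B6 and at 236, 249 and 245 CPM with PAM3, a rise of 2.16 ± 0.10 (log2, edgeR adjusted p = 4.57e-10). With 25HC it was at 70.9, 58.7 and 62.2 CPM at rest, overlapping the untreated libraries, and at 199, 197 and 177 CPM with PAM3, below all of them. The fall of 0.35 ± 0.09 with PAM3 was called (adjusted p = 0.00662) and the difference of 0.23 ± 0.09 at rest was not (adjusted p = 0.087). In Ch25h-/- cells it rose by 2.29 ± 0.10, to 245, 265 and 273 CPM.

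Slc11a1 (chr1:74375195-74386062, plus strand), the phagosomal transporter, was at 247, 313 and 236 CPM in resting B6 and at 714, 886 and 874 CPM with PAM3, a rise of 1.64 ± 0.17 (log2, edgeR adjusted p = 1.27e-06). C57BL/6 mice are known to carry a loss-of-function allele of this gene, so its mRNA level is no measure of transport. It rose by 1.15 ± 0.17 in 25HC-treated cells and by 1.32 ± 0.17 in Ch25h-/- cells, again without overlap. The 25HC difference was 0.36 at rest (adjusted p = 0.121) and -0.12 with PAM3 (95% interval -0.48 to 0.23).

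Steap3 (chr1:120190757-120272705, minus strand), the endosomal ferrireductase, was at 68.5, 44.4 and 60.0 CPM in resting B6 and at 23.1, 24.5 and 27.6 CPM with PAM3, a fall of 1.20 ± 0.27 (log2, edgeR adjusted p = 0.00109). At rest 25HC-treated cells had 55.8, 57.5 and 59.2 CPM, within the range of the untreated ones (difference 0.00, 95% interval -0.56 to 0.55). With PAM3 they had 7.55, 8.68 and 6.36 CPM, all below the untreated libraries, a fall of 1.73 ± 0.27 (adjusted p = 0.000125), or 3.32-fold. In Ch25h-/- cells the resting libraries spread from 23.0 to 67.5 CPM and overlapped the PAM3 libraries at 21.2 to 26.3 CPM. The fall there of 0.92 ± 0.27 (adjusted p = 0.00747) became 0.51 and was not called without resting replicate 1 (adjusted p = 0.062), nor with only the groups compared (adjusted p = 0.0696).

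Heme oxygenase 1 rose with PAM3 in every arm and was lower with 25HC under PAM3. Hmox1 (chr8:75093621-75100589, plus strand) was at 234, 187 and 219 CPM in resting B6 and at 826, 757 and 955 CPM with PAM3, a rise of 1.99 ± 0.14 (log2, edgeR adjusted p = 2.11e-08). With 25HC it was at 181, 156 and 179 CPM at rest, all below the untreated libraries, but the fitted difference of -0.31 ± 0.13 was not called (adjusted p = 0.0896). With 25HC and PAM3 it was at 429, 519 and 409 CPM, all below PAM3 alone, a fall of 0.90 ± 0.13 (adjusted p = 6.33e-05), or 1.87-fold. Ch25h-/- cells had 293, 287 and 325 CPM at rest, all above B6, and 713, 601 and 730 CPM with PAM3, all below B6. Neither genotype difference was called (0.50 ± 0.13 at rest, adjusted p = 0.559, and -0.31 ± 0.13 with PAM3, adjusted p = 0.286). No pair of neighbouring groups overlapped in the order of Hmox1 levels.

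Whether 25HC changed the PAM3 response was tested as an interaction, the PAM3 log2 change with 25HC minus that without it. It was called for 4 of the 9 members, 1 higher and 3 lower, against 28.3% of all genes called (12.5% higher and 15.8% lower). Slc40a1 had the value 4.87 ± 0.55 (edgeR adjusted p = 0.00011), as its fall with PAM3 was 76.9-fold without 25HC and 2.63-fold with it. Steap3 had -1.73 ± 0.37 (adjusted p = 0.00463), a deeper fall with 25HC. The rises of Slc11a2 (-0.58 ± 0.13, adjusted p = 0.00633) and Hmox1 (-0.59 ± 0.18, adjusted p = 0.027) were smaller with 25HC. The Hmox1 call was lost, at values of -0.56 to -0.49, when any of 6 single libraries was left out (resting B6 replicate 2, resting 25HC replicates 1 and 3, PAM3 replicate 3, and PAM3 with 25HC replicates 1 and 3) and with no filter on low counts (the adjusted p over all settings ran from 0.00289 to 0.0800). For the ferritins, Slc11a1, Tfrc and Cp the interaction was not called.

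Loss of Ch25h gave no called difference in the members. At rest 0 of 9 were called by edgeR, where Ch25h itself was the single gene called (0.00785% of all genes); at an unadjusted p below 0.05, 2 were higher (Hmox1 and Cp, while 5.53% of all genes passed), and DESeq2 called 0 (0.157% of all genes). The mitochondrial share of counts was 2.05% to 2.13% in resting Ch25h-/- libraries and 1.33% to 1.79% in resting B6 libraries, and its part in these values was not tested. With PAM3 0 of 9 were called (0.173% of all genes called, 0.0471% higher and 0.126% lower); 3 were lower at an unadjusted p below 0.05 (14% of all genes passed) and DESeq2 called 1, Slc40a1 (3.16% of all genes). The genotype by PAM3 interaction was called for 0 members and for 0% of all genes; 2 were lower at an unadjusted p below 0.05 (4.69% of all genes passed) and DESeq2 called 1, Hmox1 (-0.79, adjusted p = 0.0494; 0.0314% of all genes). With the replicate number as a block, which joins different mice across genotypes, 0 members were called between genotypes. The genes called went from 1 to 14 at rest and from 22 to 368 with PAM3. For the interaction the block was the mouse within a genotype, and 0 members were called. The intervals bound what could have been missed: for Fth1 at rest the difference was -0.02 (95% interval -0.41 to 0.36) and for Slc40a1 0.09 (-0.69 to 0.86), while for Cp it was 1.54 (0.38 to 2.69).

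Other genes of iron and heme handling were followed in 7 lists, of which 82 genes were tested. Among the iron regulatory proteins and their control (9 tested), PAM3 raised 6 and lowered 2 in untreated B6 (62.1% of all genes called). Aco1, which encodes iron regulatory protein 1, rose from 58.9 ± 0.22 to 88.6 ± 3.6 CPM, and Ncoa4, the receptor that takes ferritin to the lysosome, fell from 75.0 ± 25.5 to 20.2 ± 5.9 CPM (log2 -1.90 ± 0.26, edgeR adjusted p = 1.75e-05). 25HC at rest lowered Ncoa4 too, to 28.3 ± 8.9 CPM (adjusted p = 0.00152), and raised the iron chaperone Pcbp1 from 146 to 235 CPM. With PAM3, 25HC raised 3 of the 9 and lowered 1 (45.1% of all genes called). Hif1a went from 282 ± 112 to 971 ± 115 CPM. Fbxl5, which marks iron regulatory protein 2 for decay, went from 89.0 ± 15.3 to 155 ± 14.8 CPM.

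Of 13 tested genes of other iron transport and storage, PAM3 raised 5 and lowered 5 in untreated B6 (62.1% of all genes called). Lcn2, a protein that traps bacterial siderophores, rose from 1.03 ± 0.27 to 1238 ± 273 CPM (log2 10.19 ± 0.68, edgeR adjusted p = 2.11e-08), and Slc39a14, a zinc and iron importer, from 29.1 to 100.2 CPM. 25HC at rest raised 2 and lowered 0 of them (26.2% of all genes called). Slc39a14 was among those raised (74.8 ± 23.1 CPM, edgeR adjusted p = 0.00367, or 0.0561 with only the groups compared). With PAM3, 25HC raised 1 (45.1% of all genes called), the mitochondrial iron importer Slc25a37. In the hepcidin pathway (6 tested), PAM3 raised 1 and lowered 3 in untreated B6 (62.1% of all genes called). Bmp2 fell from 13.7 ± 7.9 to 0.344 ± 0.13 CPM. 25HC raised 3 and lowered 1 of the 6 tested genes at rest (26.2% of all genes called). With PAM3, 25HC raised 2 and lowered 1 of them (45.1% of all genes called). Smad7 was at a mean of 2.08 CPM in resting untreated B6 and at 5.20 CPM in resting 25HC-treated cells. Hfe, a partner of the transferrin receptor, fell with 25HC from a mean of 87.8 to 35.5 CPM at rest (adjusted p = 0.0288), a call that was lost without untreated replicate 2 (-0.97, adjusted p = 0.123) or 3, or without 25HC-treated replicate 1 or 3. With PAM3, 25HC lowered Hfe from 18.3 ± 6.8 to 3.47 ± 1.2 CPM (adjusted p = 0.000421).

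Of 14 tested genes of heme uptake, export and breakdown, 25HC lowered 4 and raised 0 at rest (26.2% of all genes called). With PAM3 it lowered 7 and raised 2 (45.1% of all genes called). Hmox2, the constitutive heme oxygenase, fell from 186 ± 12 to 117 ± 6.3 CPM at rest (log2 -0.66 ± 0.11, edgeR adjusted p = 0.000849), and Slc48a1, which carries heme out of the lysosome, from 318 ± 33 to 162 ± 11 CPM with PAM3. PAM3 in untreated B6 raised 6 and lowered 5 (62.1% of all genes called), with Hp, the hemoglobin-binding haptoglobin, going from 0.224 ± 0.098 to 222 ± 64.6 CPM. Of 11 tested genes of heme synthesis, PAM3 in untreated B6 raised 5 and lowered 2 (62.1% of all genes called). 25HC with PAM3 raised 2 and lowered 5 (45.1% of all genes called). Alas1, the rate-limiting enzyme, was at 55.3 ± 7.1 CPM at rest, 175 ± 27.4 CPM with PAM3 and 421 ± 45.5 CPM with 25HC and PAM3, while Fech, which inserts the iron, fell with PAM3 from 53.2 ± 3.8 to 35.7 ± 2.5 CPM.

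Iron-sulfur cluster assembly (17 tested) rose in 12 genes and fell in 1 with PAM3 in untreated B6 (62.1% of all genes called). In 25HC-treated cells 2 rose and 2 fell with PAM3 (58.9% of all genes called). There were 7 lower and 0 higher interaction calls (28.3% of all genes called), Lyrm4, Glrx5 and Bola3 having the smallest adjusted p. The Bola3 call was lost without any of 5 single libraries, namely resting 25HC replicate 3, PAM3 replicates 2 and 3, and PAM3 with 25HC replicates 1 and 3 (adjusted p of 0.0509 to 0.0594). The chaperone Hspa9, whose interaction was not called (-0.30, adjusted p = 0.482), was at 139 ± 38.4 CPM at rest, 336 ± 74.9 CPM with 25HC, 398 ± 37.2 CPM with PAM3 and 786 ± 30.8 CPM with both. Targets of the antioxidant factor NRF2, of which Fth1, Ftl1 and Hmox1 are known members, were kept as a reference list of 12 genes. 25HC raised 5 of the 12 at rest and lowered 0 (26.2% of all genes called), and with PAM3 it raised 9 and lowered 1 (45.1%). Sqstm1 rose from 560 ± 96 to 3221 CPM with 25HC under PAM3 (log2 2.52 ± 0.19, edgeR adjusted p = 4.04e-07) and Srxn1 from 112 ± 26 to 485 ± 54 CPM. In the same libraries Hmox1 was lower and Fth1 and Ftl1 were not called. Between genotypes 0 of the 82 genes were called by edgeR at rest (4 at an unadjusted p below 0.05, 2 by DESeq2) and 0 with PAM3 (14 and 4). Over all genes these tests passed 5.53% and 0.157% at rest and 14% and 3.16% with PAM3.

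**Figure D5:**
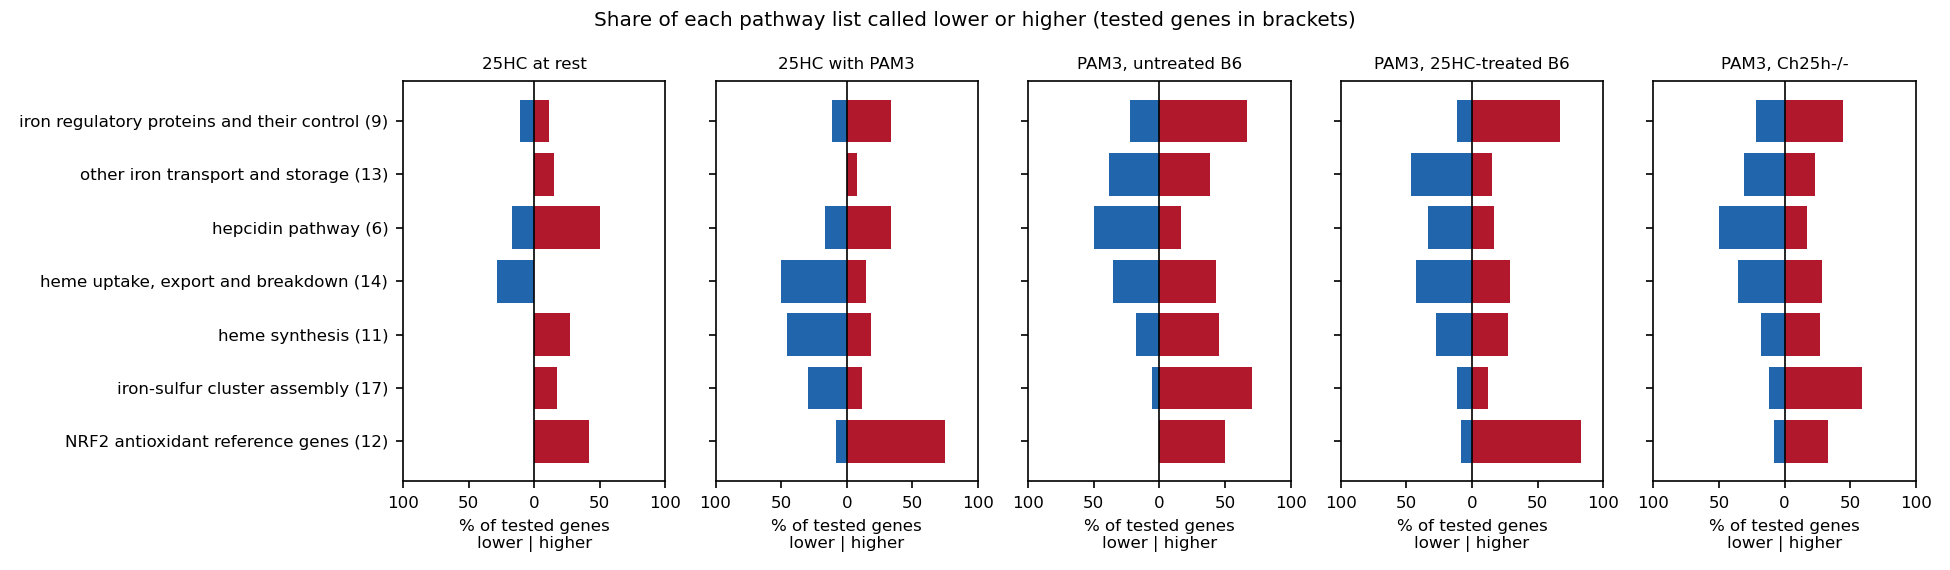
Share of the tested genes of each pathway list called higher (red, to the right) or lower (blue, to the left) at an edgeR adjusted p below 0.05, for 25HC at rest, 25HC with PAM3 and PAM3 in the 3 arms; numbers of tested genes are in brackets. The NRF2 reference list has 9 of 12 genes higher with 25HC under PAM3 (21.5% of all genes). Iron-sulfur cluster assembly has 12 of 17 higher with PAM3 in untreated B6 (31.3% of all genes).

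Some members followed each other closely over the 18 libraries and others less so. Steap3 had a Pearson r of log2 CPM of 0.40 with Slc40a1 and 0.50 with Ftl1. Log2 CPM of Fth1 had a Pearson r of 0.97 with Slc11a1 and 0.96 with Slc11a2, and Slc40a1 had -0.93 with Slc11a2; the libraries share the PAM3 contrast, and correlations within arms were not computed. The named genes most like each member, among 9833 compared, were Mmp14 for Fth1 (r = 0.99), Tpt1 for Ftl1 (0.95), Ptafr for Slc40a1 (0.99), Ifngr2 for Slc11a1 (0.99), Rims3 for Slc11a2 (0.99), Lancl3 for Tfrc (0.97), Anp32a for Hmox1 (0.98), Rassf4 for Cp (0.99) and Cd180 for Steap3 (0.98).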

How the data were processed

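RNA was extracted with a Promega SV 96 kit and libraries were made with an Illumina TruSeq stranded kit, per the labels' protocols. The authors deposited 1 table of raw read counts per gene. The submitters' processing notes name FastQC 0.11.9, GSNAP, featureCounts, Subread 1.5.2, edgeR 3.26.8 and GRCm38 (mm10). On strand, multimapping reads and gene annotation the sources used here say nothing, so reads of near-identical copies and of genes overlapping on the other strand may be miscounted.

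Counts were fitted for all 18 libraries with edgeR 4.0.16 (R 4.3.3): filterByExpr, TMM factors, robust quasi-likelihood fit with a mean per group, two-sided tests, Benjamini-Hochberg adjustment over 12741 genes. The SE is the log2 fold change over the root of F, and intervals are 95%. CPM use TMM-scaled library sizes; a prior count of 2 was added for correlations. Tests were checked on simulated data, drawn with the same dispersion for every gene and with independent libraries. That check does not cover libraries that came from the same mouse. Alternatives were DESeq2 1.42.0, other scalings and filters, only the groups compared, a replicate block and left-out libraries. The block was the mouse within a genotype, or the replicate number across genotypes in the comparisons between genotypes. Summing Ftl1 with its copy was added after seeing the data. Hairpins were searched in GENCODE M21.

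Libraries of 1 genotype with the same number came from the same mouse, per the labels' mouse field. Deviations from the group means of same-numbered libraries correlated at 0.35 to 0.58 between resting untreated and 25HC-treated B6, at -0.16 to 0.41 between the same arms with PAM3, and at -0.08 to 0.31 between rest and PAM3 within arms. Across genotypes, where the labels give different mice, they correlated at 0.33 to 0.70 at rest and at 0.09 to 0.46 with PAM3. No pair of replicates agreed within sampling noise. Replicates 1 and 3 were the closest pair of each group, except for untreated B6 with PAM3, where replicates 2 and 3 were. The cause of this pattern was not tested.

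The members were given by symbol, and they, the 7 gene lists and the tests were chosen with earlier results of these data known. All members are named; from each list, up to 3 called genes with the smallest adjusted p per comparison could be named (in a list with none called, 2 of highest CPM), ferritin copies with at least 1 CPM, and for each member the 3 genes of highest Pearson r.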

Additional observations from a re-analysis of the deposited data

Results flagged for a closer look

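The PAM3 response differed between 25HC-treated and untreated B6 macrophages for 4 of the 9 genes, by the interaction test in edgeR (28.3% of all genes were called in it). The interaction on the log2 scale was 4.87 for Slc40a1, whose libraries with PAM3 were at 45.1 to 70.1 CPM with 25HC and at 4.41 to 9.27 CPM without it. It was -1.73 for Steap3, at 6.36 to 8.68 CPM against 23.1 to 27.6 CPM. It was -0.58 for Slc11a2, at 177 to 199 CPM against 236 to 249 CPM. It was -0.59 for Hmox1, at 409 to 519 CPM against 757 to 955 CPM, and this call was lost without any of 6 single libraries. The direction was shared by all 3 replicate numbers for each of these 4 genes. The calls came from the same libraries, so this adds no separate support. Slc11a1, whose interaction was not called, also had 1 direction in all 3.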

How the results depend on the processing

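Each result was recomputed under 8 other settings and with single libraries left out. Of the 38 called member results, 35 kept their call and direction under every setting; the others are Ftl1 with PAM3 in untreated B6, Steap3 with PAM3 in Ch25h-/- and the Hmox1 interaction. The number of members called with 25HC at rest was 2 and became 5 without replicate 2 of every group, while the share of all genes called went from 26.2% to 40.1%. The number between genotypes with PAM3 was 0 and became 1 with DESeq2 (3.16% of all genes called) and 1 without replicate 2 of every group (3.02%); the genotype by PAM3 interaction went from 0 to 1 with DESeq2 (0.0314%). With single libraries left out, the counts were 2 to 3 with 25HC at rest, 5 with 25HC and PAM3, 8 to 9 with PAM3 in untreated B6 and in Ch25h-/-, 9 in 25HC-treated cells, 3 to 4 for the 25HC interaction and 0 for both genotype comparisons and their interaction. The replicate block changed 1 member call: Ftl1 with PAM3 in untreated B6 was no longer called (-0.33, edgeR adjusted p = 0.0538).

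Unscaled library totals moved the median of all genes with PAM3 by about -0.20 (log2) and the share of higher among called genes in untreated B6 from 50.4% to 36.2%, and every member kept its PAM3 direction and call. Of the named list genes, 104 of 121 results kept their call under every setting and none reversed; of 1932 counts of list genes called higher or lower under other settings, 149 moved by over 1.5 times or away from 0.

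Values that changed sign were all uncalled and at most 0.19 in size. With 25HC at rest, Fth1 was -0.033 with no filter and -0.038 to 0.17 with libraries left out; Steap3 was 0.040 with unscaled totals, 0.0045 with the replicate block and -0.16 to 0.14 with libraries left out. With 25HC and PAM3, Tfrc was 0.017 without replicate 2 of every group and -0.25 to 0.076 with single libraries left out. Between genotypes at rest, leaving out libraries gave -0.14 to 0.12 for Fth1, -0.11 to 0.12 for Ftl1, -0.19 to 0.18 for Slc11a1, -0.087 to 0.026 for Slc11a2 and -0.11 to 0.43 for Slc40a1; without replicate 2 of every group Ftl1 was 0.15 and Slc11a1 -0.056, and with no filter Slc11a1 was -0.045. In the genotype by PAM3 interaction Tfrc was -0.0066 with the replicate block and -0.19 to 0.39 with libraries left out, and Steap3 -0.036 to 0.70. The cause of these changes was not tested. What depth limits was not tested.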
